A study of Monodelphis domestica with 6 samples.

Results

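The genes described here are the 10 collagen hydroxylation and crosslinking enzymes that carry the symbols LOX, LOXL1, LOXL2, LOXL3, LOXL4, PLOD1, PLOD2, PLOD3, P4HA1 and P4HA2 in the deposited gene tables. They were picked out of the tables by these symbols, and all 10 were found among the 35665 genes of the tables. RNA sequencing was performed on neonatal skin fibroblasts (neoSF) of a laboratory marsupial, the gray short-tailed opossum (*Monodelphis domestica*), and on the induced pluripotent stem cells (monoiPSC) reprogrammed from them. The neoSFs were cultured from the back skin of 10-day-old female pups of 2 inbred strains, FD2M1 and LSD1, with 1 library per strain. The neoSFs were untreated and grown in serum-containing medium. The monoiPSCs were made by nucleofecting these neoSFs with episomal plasmids that encode human OCT4, SOX2, NANOG, KLF4, LIN28 and cMYC. They were grown without feeder cells on Matrigel, itself a basement membrane preparation, with LIF, bFGF and a ROCK inhibitor. The FD2M1 line and the LSD1 line were each sequenced at passages 15 and 25, which gave 4 monoiPSC libraries from 2 lines, so the libraries of a line share their origin and p-values measure only the spread between these libraries.

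The neoSF libraries held 14278794 and 16982978 counts and the monoiPSC libraries between 28684754 and 35564261. The neoSFs were sequenced in-house with short single-end reads and the monoiPSCs by a sequencing service with longer paired-end reads, so for every gene the sequencing platform and the cell type cannot be told apart. Of 10 fibroblast markers, 9 were found, and their summed normalized read count (NRC, the authors' DESeq-normalized count) was between 1609982 and 1763428 in neoSFs and between 11273 and 14093 in monoiPSCs. The 7 pluripotency markers summed to between 130.0 and 194 in neoSFs and between 9716 and 13745 in monoiPSCs. Markers of other cells were also present. The 4 skeletal muscle markers found summed to between 17524 and 21801 in neoSFs, mostly ACTC1, and to between 1966 and 16771 in monoiPSCs. MYOG ran opposite to ACTC1, with 206 and 22.2 in neoSFs and between 985 and 5549 in monoiPSCs. MYOD1 and DES overlapped between the groups. The 4 melanocyte markers found summed to between 253 and 402 in neoSFs and between 4601 and 15555 in monoiPSCs. Almost all of the monoiPSC sum was DCT. MLANA ran opposite to DCT, with 21.8 and 18.5 in neoSFs and between 1.03 and 18.2 in monoiPSCs, and MITF and TYR overlapped between the groups. Keratinocyte, endothelial and haematopoietic markers summed to at most 263 in any library.

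Fibrillar collagen is modified in the endoplasmic reticulum before it is secreted. Prolyl 4-hydroxylases convert proline to 4-hydroxyproline, which stabilises the triple helix, and lysyl hydroxylases convert lysine to hydroxylysine, which carries sugars and sets the type of crosslink that can form later. Outside the cell, lysyl oxidases, which are copper-dependent amine oxidases, turn lysine and hydroxylysine of collagen and lysine of elastin into aldehydes that condense into crosslinks. Skin fibroblasts are a main source of dermal collagen, and both hydroxylase families need iron, 2-oxoglutarate, oxygen and ascorbate.

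Between neoSFs and monoiPSCs, 8 of the 10 enzymes fell by 2-fold or more and none rose. The fall ranged from 6.25-fold for LOXL3 to 169-fold for LOX, and the 2 enzymes not called were LOXL4 and PLOD3. Differential expression (DE) required a change of 2-fold or more together with a Benjamini-Hochberg adjusted p no higher than 0.05 in edgeR's quasi-likelihood test over 13072 genes. Of all genes tested, 21.6% were DE and lower and 24.3% DE and higher, 45.9% in all. At any fold, 9 of the 10 enzymes passed the adjusted p and were lower, against 29.4% of all genes tested. All 4 monoiPSC libraries lay below both neoSF libraries for 9 of the 10 enzymes, against 37.1% of all genes tested, with LOXL4 as the exception. Groups that did not overlap were frequent, at 73.2% of all genes in either direction. All 10 enzymes were expressed in both cell types, with an NRC of at least 20 in every library. The median log2 fold change of the 10 enzymes was -2.78, and that of all genes tested was 0.08. These are bulk samples, in which fewer cells of a type and less RNA per cell cannot be told apart.

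**Figure D1:**
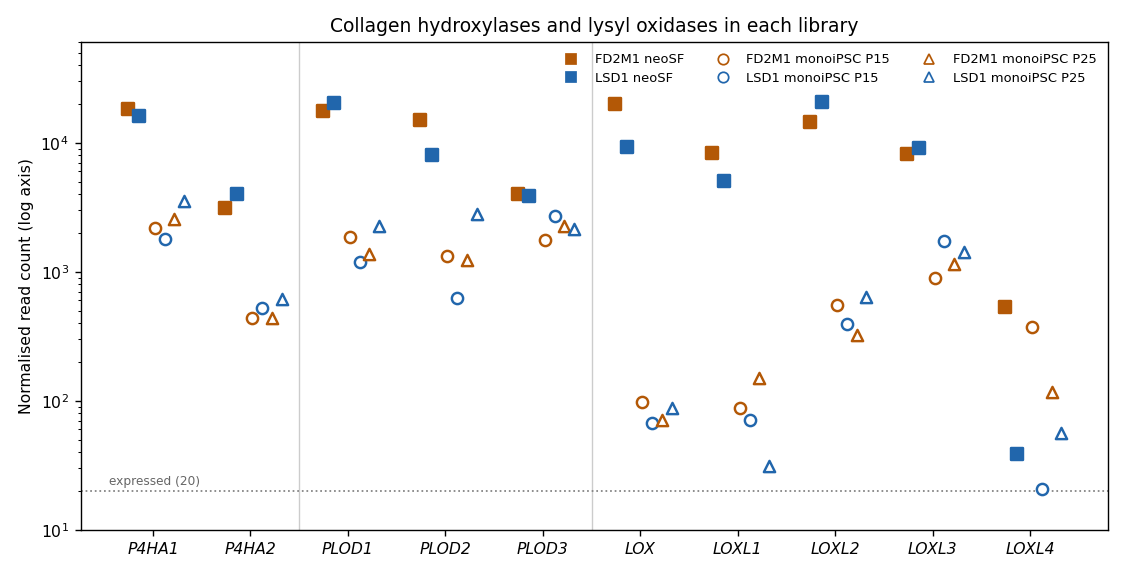
NRC of the 10 enzymes (log axis) in each library, with filled squares for neoSFs and open symbols for monoiPSCs at passage 15 (circles) and passage 25 (triangles), FD2M1 in orange and LSD1 in blue, and a line at the NRC of 20 above which a gene counts as expressed. The squares lie above all open symbols for 9 of the 10 enzymes, and the LOXL4 symbols are mixed.

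The prolyl 4-hydroxylase alpha subunits, which hold the catalytic site of the enzyme, fell by similar factors. P4HA1 (gene number 100010507, chromosome 1 of MonDom5) had NRCs of 18276 in FD2M1 and 16082 in LSD1 neoSFs. In monoiPSCs it had 2197 and 2584 in FD2M1 and 1796 and 3535 in LSD1, at passages 15 and 25 in that order here and in the values that follow. The log2 fold change of P4HA1 was -2.67 (SE 0.26, adjusted p = 0.00014, edgeR), a 6.36-fold fall. P4HA2 (gene number 100018258, chromosome 1), the alternative alpha subunit, had 3123 and 3990 in neoSFs against 434 and 436 in FD2M1 and 519 and 612 in LSD1 monoiPSCs. Its monoiPSC values were the most even of the 10 enzymes, with a highest value 1.41 times the lowest. P4HA2 fell 6.66-fold (log2 fold change -2.73, SE 0.19, edgeR adjusted p = 3.88e-05). P4HA1 held 82.8% ± 3.73 (SD, n = 2) of the reads of the 2 genes in neoSFs and 83.0% ± 3.69 (SD, n = 4) in monoiPSCs. The log2 ratio of P4HA2 to P4HA1 differed by -0.03 between the cell types, with overlapping groups (exact two-sided permutation test, p = 0.933). With single libraries left out, this difference ranged from -0.295 to 0.242.

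The lysyl hydroxylases differed among themselves. PLOD1 (gene number 100017955, chromosome 4), which acts on lysines of the collagen helix, had NRCs of 17650 in FD2M1 and 20305 in LSD1 neoSFs. In monoiPSCs it had 1866 and 1383 in FD2M1 and 1195 and 2264 in LSD1. The fall was 10.6-fold (log2 fold change -3.40, SE 0.26, edgeR adjusted p = 5.69e-05), and the lowest neoSF value was 7.80 times the highest monoiPSC value.

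PLOD2 (gene number 100018666, chromosome 7), the enzyme of the telopeptide lysines, had 14923 in FD2M1 and 7995 in LSD1 neoSFs. In monoiPSCs PLOD2 had 1330 and 1234 in FD2M1 and 623 and 2824 in LSD1, so the LSD1 line held both the lowest and the highest value. The fall was 7.13-fold (log2 fold change -2.83, SE 0.53, edgeR adjusted p = 0.00262). Against the neoSFs of the same strain, the log2 change of PLOD2 was -3.38 and -3.50 in the FD2M1 line and -3.59 and -1.42 in the LSD1 line. The LSD1 library at passage 25 also had the highest monoiPSC value of CA9 and ADM, a pair of genes induced by hypoxia-inducible factor (HIF), with NRCs of 466 and 238 against at most 135 in the other 3 libraries for each. It had the highest value of the 4 monoiPSC libraries for 5 of the 10 enzymes and for 5 of 9 HIF-responsive genes, and for 31.1% of all genes tested. Its value was the lowest of the 4 for 1 of the 9 HIF-responsive genes, PDK1. PDK1 had 1214 there against 1580 to 1758 in the other 3. The skeletal muscle markers summed to 16771 there and to between 1966 and 6133 in the other 3 monoiPSC libraries, and the library with the next highest sum, LSD1 at passage 15, had the lowest PLOD2. No muscle marker was at 0 in all libraries, and the part of HIF-responsive genes and of muscle markers in the PLOD2 values was not tested.

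PLOD3 (gene number 100017782, chromosome 2), which is also a collagen glycosyltransferase, had 3982 and 3841 in neoSFs. The monoiPSC values of PLOD3 were 1762 and 2241 in FD2M1 and 2687 and 2132 in LSD1. All 4 monoiPSC values were below both neoSF values, and the lowest neoSF value was 1.43 times the highest monoiPSC value. The log2 fold change of -0.73 (SE 0.18, edgeR adjusted p = 0.00914) passed the test but was under 2-fold, so PLOD3 was not called DE.

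The make-up of the lysyl hydroxylase reads differed between the cell types. PLOD3 held 11.4% ± 0.747 (SD, n = 2) of the reads of the 3 genes in neoSFs and 42.7% ± 13.2 (SD, n = 4) in monoiPSCs, where single libraries ranged from 29.5% to 59.6%. PLOD1 held 55.7% ± 10.5 in neoSFs and 31.0% ± 4.85 in monoiPSCs, and PLOD2 32.8% ± 11.3 and 26.3% ± 10.3 with overlapping groups. The log2 ratio of PLOD1 to PLOD3 was 2.15 and 2.40 in the neoSF libraries and between -1.17 and 0.09 in the monoiPSC libraries. The difference of -2.70 has an exact permutation p of 0.0667, the smallest that 4 libraries against 2 can give over the 15 splits, and 0.133 after adjustment over the 8 ratios compared. The log2 ratio of PLOD2 to PLOD3 differed by -2.22 in monoiPSCs against neoSFs, without overlap (exact permutation p = 0.133, adjusted p = 0.213). PLOD2 to PLOD1 overlapped between the groups (difference 0.47, exact permutation p = 0.4, adjusted p = 0.457). That difference was 1.03 when the FD2M1 neoSFs were left out and -0.0764 when the LSD1 neoSFs were.

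Among the lysyl oxidases, 4 of 5 fell, where 21.6% of all genes tested were DE and lower. Of these, 3 fell more than any hydroxylase. LOX (gene number 100027065, chromosome 6), the founding member of the family, had NRCs of 19973 in FD2M1 and 9231 in LSD1 neoSFs. In monoiPSCs it had 97.6 and 70.7 in FD2M1 and 66.8 and 87.2 in LSD1. The neoSF libraries differed 2.16-fold, and the monoiPSC libraries 1.46-fold. LOX fell 169-fold (log2 fold change -7.40, SE 0.35, edgeR adjusted p = 1.2e-05), and 111 of the 13072 genes tested had a lower log2 fold change. The log2 fold change of LOX was -6.75 when the FD2M1 neoSFs were left out and -7.85 when the LSD1 neoSFs were.

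LOXL1 (gene number 100029444, chromosome 1), known for its part in elastic fibre assembly, had 8311 and 5028 in neoSFs. Its monoiPSC values were 88.5 and 149 in FD2M1 and 71.1 and 31.2 in LSD1. These values spread 4.79-fold, and LOXL1 was the highest in FD2M1 at passage 25 and the lowest in LSD1 at passage 25. LOXL1 fell 73.6-fold (log2 fold change -6.20, SE 0.54, edgeR adjusted p = 9.74e-05).

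LOXL2, LOXL3 and LOXL4 are the family members that carry scavenger receptor domains. LOXL2 (gene number 100021406, chromosome 1), which acts on basement membrane collagen IV, had 14405 and 20699 in neoSFs, and 556 and 323 in FD2M1 and 391 and 639 in LSD1 monoiPSCs. It was higher in the LSD1 than in the FD2M1 neoSFs, the reverse of LOX and LOXL1. LOXL2 fell 34.4-fold (log2 fold change -5.10, SE 0.31, edgeR adjusted p = 2.57e-05). LOXL3 (gene number 100025857, chromosome 5) had 8208 and 9147 in neoSFs, and 886 and 1153 in FD2M1 and 1739 and 1422 in LSD1 monoiPSCs. Its fall of 6.25-fold (log2 fold change -2.64, SE 0.25, edgeR adjusted p = 0.000136) was close to those of the prolyl 4-hydroxylase subunits.

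LOXL4 (gene number 100021139, chromosome 1) was not called between the cell types. Its NRCs were 535 in FD2M1 and 38.5 in LSD1 neoSFs, and 371 and 117 in FD2M1 and 20.6 and 56.7 in LSD1 monoiPSCs. The values of the 3 FD2M1 libraries were all above those of the 3 LSD1 libraries, across both cell types. This was noticed after the values had been seen, and the share of all genes tested that part the strains this way was not counted. The log2 fold change between monoiPSCs and neoSFs was -0.91 (SE 1.19, edgeR adjusted p = 0.528), and without the FD2M1 neoSF library it was 1.98. Against the neoSFs of the same strain, the log2 change of LOXL4 was -0.42 and -2.10 in the FD2M1 line and -0.81 and 0.64 in the LSD1 line. The deposited counts behind the LSD1 values were low, with 24.3 as the lowest.

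**Figure D2:**
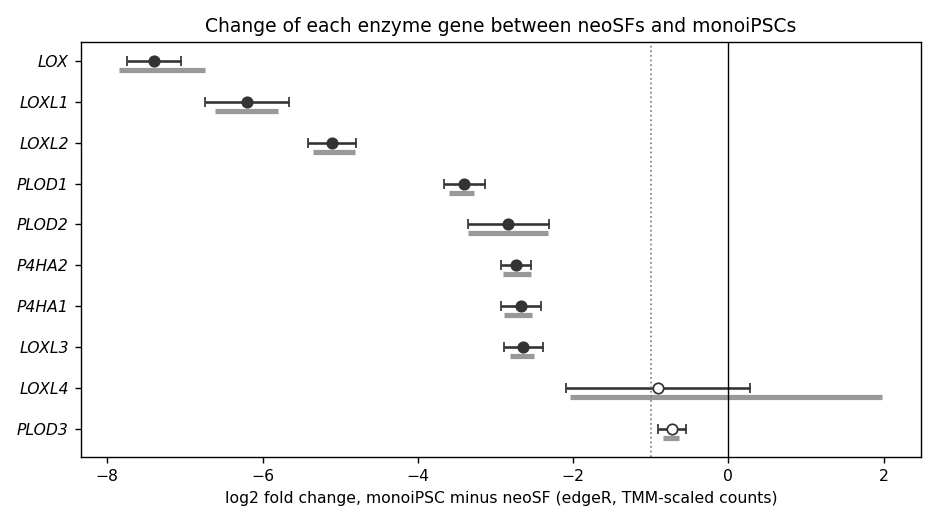
Log2 fold change of each enzyme in monoiPSCs against neoSFs, with error bars of 1 SE, filled points for DE enzymes, grey bars for the range over the other settings tried and a dotted line at a 2-fold fall. LOX, LOXL1 and LOXL2 lie at -7.40, -6.20 and -5.10, the 5 enzymes from PLOD1 to LOXL3 between -3.40 and -2.64, and the grey bar of LOXL4 spans 0.

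In order of log2 fold change, LOX and LOXL1, LOXL1 and LOXL2, and LOXL2 and PLOD1 were each further apart than the sum of their standard errors. That sum is a yardstick and not a test of the order. From PLOD1 through PLOD2, P4HA2 and P4HA1 to LOXL3, no neighbours differed by more than that sum. Only neighbours were compared, so these enzymes are not shown to share a fold change. PLOD1 was at -3.40 (SE 0.26) and LOXL3 at -2.64 (SE 0.25), and PLOD2, next to PLOD1, had the wider SE of 0.53. LOXL3 and LOXL4 were again further apart, by 1.74 on the log2 scale, and LOXL4 and PLOD3 were not. As a share of the neoSF mean, the monoiPSC mean was 0.552% for LOX, 1.27% for LOXL1 and 2.72% for LOXL2. It was between 8.84% and 15.0% for PLOD1, PLOD2, P4HA1, P4HA2 and LOXL3, and 56.4% for PLOD3. The summed fibroblast markers in monoiPSCs were 0.735% of their neoSF mean, which is above the share of LOX and below that of the other 9 enzymes. In neoSFs that sum was mostly COL1A1. Single fibroblast markers ranged from 0.142% for COL1A1 to 17.3% for PDGFRA, a range that holds the share of every enzyme except PLOD3 and LOXL4.

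Summed over the 5 lysyl oxidases, the NRC was 51433 and 44143 in neoSFs and between 1813 and 2289 in monoiPSCs, a 22.9-fold lower mean. The same sum was 6.38-fold lower for the 3 lysyl hydroxylases and 6.85-fold lower for the 2 prolyl 4-hydroxylase subunits. Within the lysyl oxidase reads, LOX held 38.8% and 20.9% in neoSFs and between 2.92% and 4.88% in monoiPSCs. LOXL3 held 16.0% and 20.7% in neoSFs and between 44.3% and 76.0% in monoiPSCs. Counting error was small beside these differences, since the widest 95% Wilson interval of a LOXL3 share spanned 3.51 percentage points, and the intervals cover counting error only. Read shares depend on gene length, so they were compared between libraries and not between genes.

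**Figure D3:**
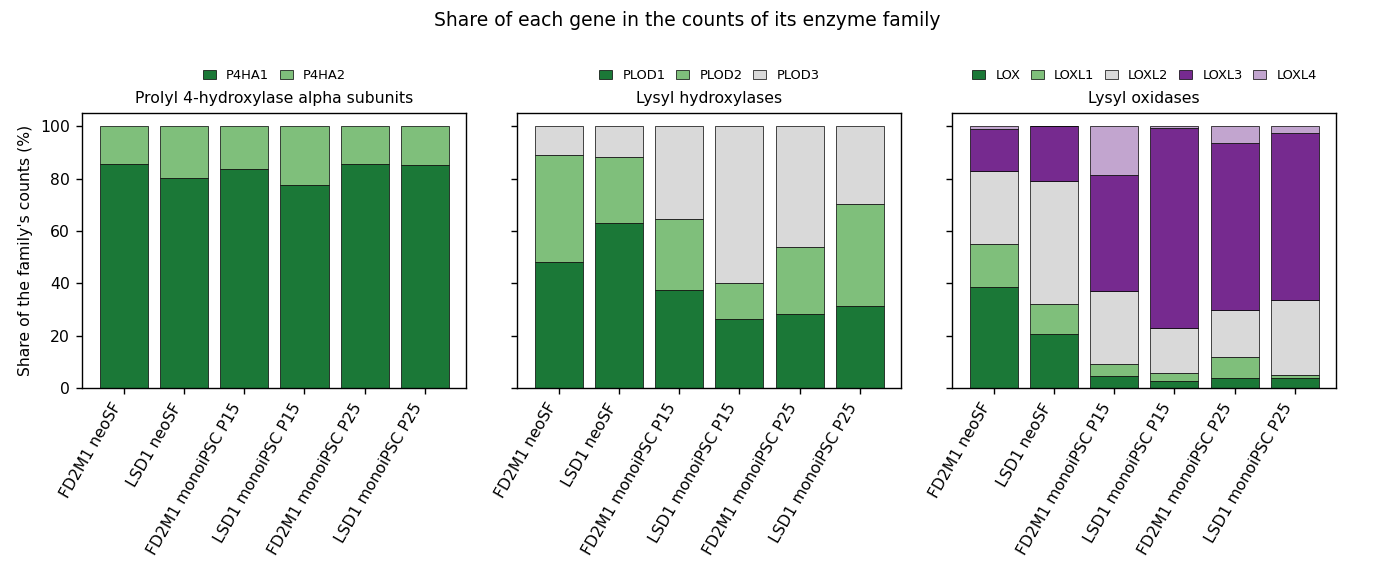
Percent of the reads of each enzyme family (lysyl oxidases, lysyl hydroxylases, prolyl 4-hydroxylase alpha subunits) that each gene held, as stacked bars for the 6 libraries. LOXL3 takes a larger part of the lysyl oxidase bar and PLOD3 of the lysyl hydroxylase bar in all 4 monoiPSC libraries than in either neoSF library, and the P4HA1 part is between 77.6% and 85.5% in every library.

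Ratios between enzymes of a family within a library do not depend on how libraries are scaled. LOX to LOXL2 had log2 ratios of 0.47 and -1.16 in neoSFs and between -2.87 and -2.18 in monoiPSCs. The mean difference of -2.18 was -1.36 when the FD2M1 neoSFs were left out and -3.00 when the LSD1 neoSFs were. LOXL3 to LOXL2 had -0.81 and -1.18 in neoSFs and between 0.67 and 2.15 in monoiPSCs, a 5.45-fold higher ratio. LOXL4 to LOXL2 was higher by 4.46 on the log2 scale in monoiPSCs, and by 2.31 when the LSD1 neoSFs were left out and 6.62 when the FD2M1 neoSFs were. It was higher by 3.84 without the FD2M1 monoiPSCs and by 5.06 without the LSD1 monoiPSCs at passage 15. The groups did not overlap for these 3 ratios, each with the smallest possible exact permutation p of 0.0667 and an adjusted p of 0.133. LOXL1 to LOXL2 overlapped (difference -1.23, exact permutation p = 0.333, adjusted p = 0.444). That difference ranged from -1.85 without the LSD1 neoSFs to -0.602 without the FD2M1 neoSFs, and was -0.654 without the LSD1 monoiPSCs at passage 25 and -1.74 without the FD2M1 monoiPSCs at passage 25. With these exact tests, none of the 8 ratios could reach 0.05, whatever their size.

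**Figure D4:**
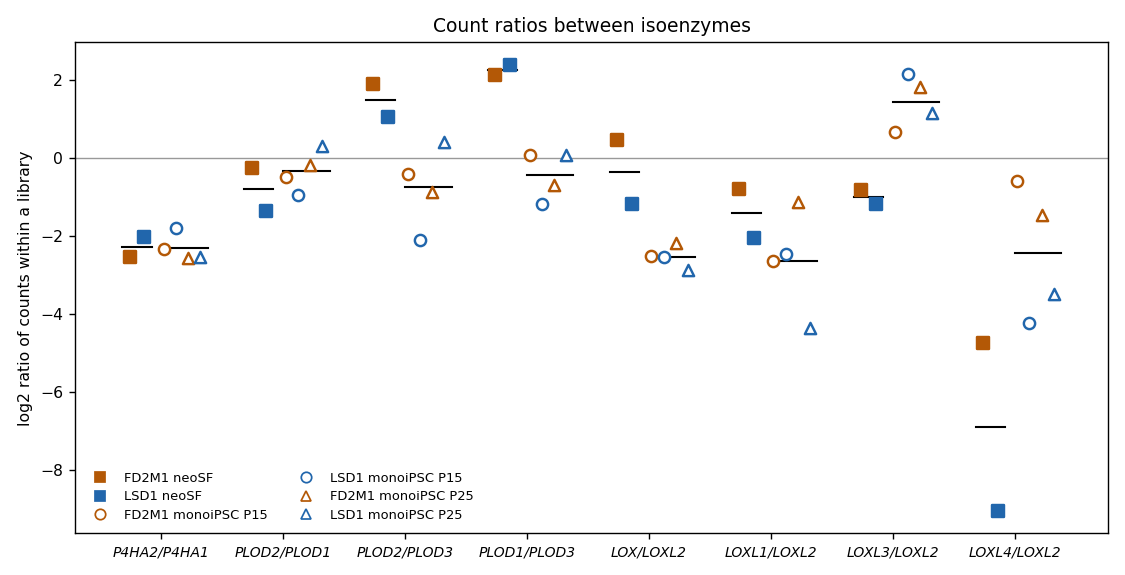
Log2 ratio of the counts of 8 pairs of enzymes within each library, with filled squares for neoSFs, open circles and triangles for monoiPSCs at passages 15 and 25, FD2M1 in orange, LSD1 in blue and black lines for group means. The groups lie apart for PLOD2/PLOD3, PLOD1/PLOD3, LOX/LOXL2, LOXL3/LOXL2 and LOXL4/LOXL2 and overlap for the other 3 pairs.

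Among the monoiPSC libraries, no enzyme was called between passage 25 and passage 15 by edgeR's test with the line as a covariate, and 0% of 12252 genes were. This fit, like the one between the lines, left 1 residual degree of freedom. A missing call therefore does not show that these genes were unchanged. At an unadjusted p under 0.05, 9.35% of these genes would pass, among them P4HA1, which was higher at passage 25 by 0.59 on the log2 scale (SE 0.20, unadjusted p = 0.0266, edgeR adjusted p = 0.496). PLOD2 was higher by 1.02 (SE 0.51, edgeR adjusted p = 0.582), with a fall from 1330 to 1234 in FD2M1 and a rise from 623 to 2824 in LSD1. DESeq2 called 0.971% of the genes between passages and none of the enzymes.

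Between the LSD1 and FD2M1 lines, edgeR called 0% of the genes and none of the enzymes, with 14.2% of the genes at an unadjusted p under 0.05. LOXL4 had a log2 difference of -2.56 in the LSD1 line against the FD2M1 line (SE 0.77, unadjusted p = 0.0157, edgeR adjusted p = 0.251), and LOXL3 was higher by 0.64 (SE 0.21, unadjusted p = 0.0233, edgeR adjusted p = 0.282). DESeq2 called 1.56% of the genes and LOXL4 alone of the enzymes (log2 fold change -2.58, adjusted p = 0.00473). After the LOXL4 values had been seen, the strains were also compared over all 6 libraries with the cell type as a covariate. The log2 difference of LOXL4 was -3.01 in LSD1 against FD2M1 (SE 0.63, unadjusted p = 0.00271, edgeR adjusted p = 0.432), where edgeR called 0% of 13072 genes and 9.63% had an unadjusted p under 0.05. DESeq2 called 0.903% of the genes in that comparison, among them LOXL4 (adjusted p = 0.000414), so the call of a strain difference in LOXL4 depends on the tool. Since the comparison was chosen for LOXL4, its values are a description.

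The other genes of collagen maturation were taken from lists by role. Of 38 listed genes outside the HIF lists, 35 were tested, of which 23 fell, 3 rose and 9 were not called, with a median log2 fold change of -1.94. Over all genes tested, 21.6% were DE and lower and 24.3% DE and higher. COL1A2 and ELN were not analysed here, and P3H2 did not reach the expression minimum. Among the other hydroxylase and glycosyltransferase genes, 5 of 9 tested fell and 1 rose. P3H4 (log2 fold change -2.78, SE 0.20) and CRTAP (-2.26, SE 0.19), partners of the prolyl 3-hydroxylase and lysyl hydroxylase complexes, fell the most. P4HB, the protein disulfide isomerase that serves as the beta subunit for both P4HA1 and P4HA2, had 29169 and 30404 in neoSFs and between 10036 and 11682 in monoiPSCs. Its log2 fold change of -1.36 (SE 0.15, edgeR adjusted p = 0.000234) was smaller in size than those of its alpha subunits, and this difference was not tested. COLGALT2, a collagen galactosyltransferase, was the gene that rose (2.03, SE 0.70, edgeR adjusted p = 0.0374). It had 168 and 20.3 in neoSFs and between 277 and 419 in monoiPSCs, and it lost its call whichever monoiPSC library was left out, with an adjusted p of up to 0.0694. Its log2 fold change was 4.19 when the FD2M1 neoSFs were left out and 1.19 when the LSD1 neoSFs were.

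Of 6 collagen chaperone and secretion genes, 4 fell and none rose. For this and the next lists, 21.6% of all genes tested were DE and lower and 24.3% DE and higher. FKBP10, a prolyl isomerase needed for the hydroxylation of telopeptide lysines, had a log2 fold change of -3.45 (SE 0.19), and CREB3L1, a transcription factor of the secretory pathway, of -3.36 (SE 0.51). In the propeptide removal list, 5 of 8 fell and 1 rose. The procollagen N-proteinase ADAMTS2 had a log2 fold change of -6.54 (SE 0.41) and the C-proteinase enhancer PCOLCE of -3.81 (SE 0.27). The C-proteinase gene BMP1 also fell (-1.94, SE 0.22). TLL2, another gene of this list, rose from 30.0 and 13.7 in neoSFs to between 1012 and 2343 in monoiPSCs (6.46, SE 0.54). Among 8 cofactor and partner genes of the oxidases, 5 fell and 1 rose. POSTN (-8.64, SE 0.96) and FN1 (-7.40, SE 0.32), matrix proteins that bind the proteinase that activates LOX, had the lowest log2 fold changes, and the matrix protein gene FBLN1 rose (3.94, SE 0.29). The POSTN value was -6.95 when the FD2M1 neoSFs were left out, where FN1 was at -7.77, and was -9.39 without the LSD1 neoSFs and -9.27 without the FD2M1 monoiPSCs at passage 15. The copper transporters ATP7A and SLC31A1 were the 2 genes of this list not called. SLC31A1 passed the adjusted p but fell by less than 2-fold (-0.93, SE 0.16, edgeR adjusted p = 0.00176). ATP7A did not pass it (-0.32, SE 0.27, edgeR adjusted p = 0.321).

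All 4 substrate collagens tested fell, from a log2 fold change of -5.85 (SE 0.19) for COL5A1 to -9.36 (SE 0.62) for COL1A1, with a median of -7.21. COL1A1 and COL3A1 also belong to the fibroblast markers. HIF subunits and the oxygen-sensing hydroxylases, which use the same cofactors as the collagen hydroxylases, had 4 of 7 genes lower and none higher, led by EGLN3 (-3.40, SE 0.51) and P4HTM (-1.56, SE 0.22). Of 9 HIF-responsive genes tested, 3 fell, among them ADM (-3.02, SE 0.48), and PDK1 rose (1.99, SE 0.22), with 5 not called. Of all genes tested, 21.6% were DE and lower and 24.3% DE and higher, 45.9% in all. EGLN3 belongs to both HIF lists. BNIP3 was not analysed here. P4HA1, P4HA2, PLOD2 and LOX are themselves known as genes that HIF induces.

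**Figure D5:**
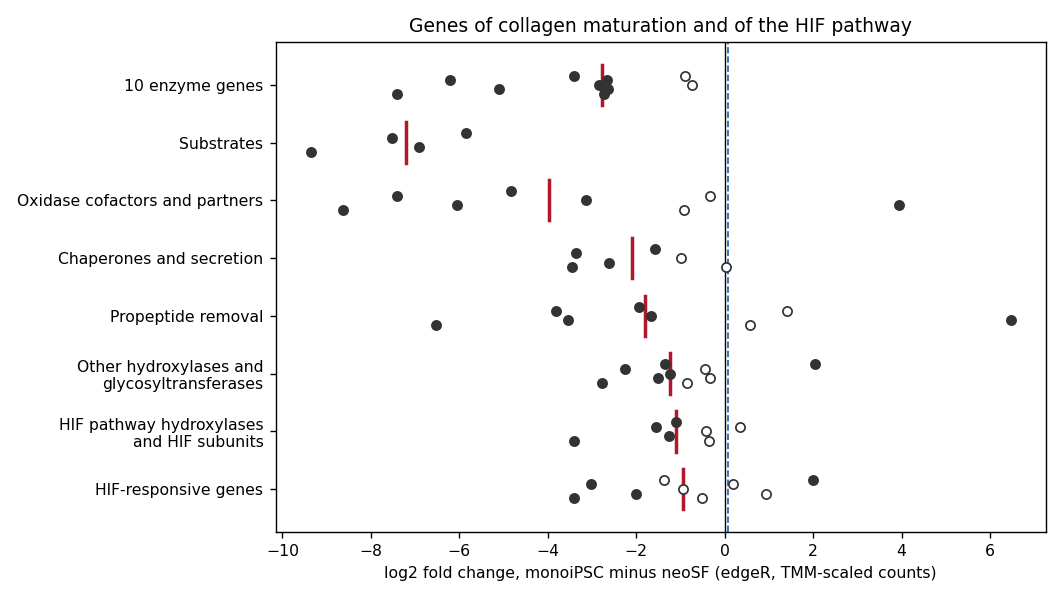
Log2 fold change in monoiPSCs against neoSFs of every tested gene of the enzyme families and of the pathway lists, with filled points for DE genes, red bars for list medians and a dashed blue line for the median of all genes tested. The list medians lie between -7.21 for the substrates and -0.95 for the HIF-responsive genes, all below the 0.08 of all genes tested.

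For each enzyme, the tested gene with the most similar profile was sought by the root mean square difference of centred log2 values over the 6 libraries. It was TGFB3 for LOX (0.245), SEMA7A for LOXL1 (0.337), PCDH7 for LOXL2 (0.227), ASAH1 for LOXL3 (0.144) and DLX1 for LOXL4 (0.841). Among the hydroxylases it was RAB31 for PLOD1 (0.145), LRP1B for PLOD2 (0.28), PPT1 for PLOD3 (0.0586), CDKN2A for P4HA1 (0.127) and PPARA for P4HA2 (0.0874). The profile of LOXL4 had the least similar nearest gene, and that of PLOD3 the most similar. These values are a description over libraries that fall into 2 cell types.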

How the data were processed

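The authors aligned the reads of the neoSF and monoiPSC libraries to MonDom5 with StrandNGS, filtered them by read and mapping quality and by multiple mapping, and counted them on RefSeq genes. The deposited raw counts were not whole numbers in 86.8% of the entries above 0 (tolerance 1e-06), and were handled as estimated counts and rounded. How paired reads were counted is not given in the sources used here. A second deposited table holds log2 values of the DESeq-normalized counts, and 2 raised to these is the NRC. Genes that reached an NRC of 20 in every neoSF library or in every monoiPSC library were tested with edgeR 4.0.16 (TMM scaling, glmQLFit and glmQLFTest, R 4.3.3). Standard errors were taken as the absolute log2 fold change over the root of F. DESeq2 1.42.0, limma 3.58.1, RLE scaling, truncated counts, no filter, a strain block and the omission of single libraries were alternatives. The edgeR tests were also run on simulated counts, where only the comparison between the cell types had a pass mark. Ratios used counts plus 0.5. The NRC was set to 0 where the count was 0.

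Strain pairs the groups, since each line was made from the neoSFs of its strain. The strain difference in neoSFs correlated with that in monoiPSCs at r = 0.071 (passage 15) and -0.004 (passage 25) over 13072 genes. The genes named are the 10 enzymes, up to 2 called genes with the highest and up to 2 with the lowest log2 fold change of each list, any that run against the majority, and the nearest profile of each enzyme. P4HB, BMP1, COL5A1, ATP7A, SLC31A1, CA9 and the marker genes were named after their values were seen. The enzymes and lists were chosen with earlier results of these data known. The gene numbers carry the MonDom5 chromosome, and no coordinates are given because the RefSeq table used for names is of another assembly, mMonDom1.pri, in which the gene number of LOXL2 has no symbol.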

Additional observations from a re-analysis of the deposited data

How the results depend on the processing

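Under 12 alternatives, 8 enzymes were called lower and 0 higher each time, and 119 of 120 log2 fold changes of the enzymes between monoiPSCs and neoSFs kept their direction and side of the threshold. The exception was LOXL4, which turned to 1.98 without the FD2M1 neoSF library (range -2.05 to 1.98 with single libraries left out). With strain as a replicate block, 8 enzymes were again called lower, and the propeptide removal list had 2 genes higher in place of 1; the pairing changed no other call described here. With single libraries left out, the genes called higher ranged from 0 to 1 in the other hydroxylase list, from 1 to 2 in the propeptide removal list and from 1 to 2 among HIF-responsive genes, and the HIF pathway genes called lower from 2 to 4. The difference of P4HA2/P4HA1 ranged from -0.295 to 0.242 and that of PLOD2/PLOD1 from -0.0764 to 1.03. Without the line as a covariate, the passage differences turned to 0.16 for LOXL1, 0.0078 for LOXL2 and -0.048 for LOXL3. DESeq2 called 1 enzyme lower, LOXL4, between the lines and 1 between the strains, where edgeR called 0. The strain difference over all 6 libraries turned to -0.0078 for P4HA1 with limma, and with single libraries left out it ranged from -0.298 to 0.253 for P4HA1, from -0.144 to 0.363 for PLOD1 and from -0.964 to 0.423 for PLOD2. The cause of these changes was not tested. Leaving out a library could not be fitted for the passage and line comparisons with their covariate, since no residual degrees of freedom remain. With 2 neoSF libraries, the spread in neoSFs rests on 1 difference per gene, and LOXL4 counts were low in LSD1.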
